A study of Arabidopsis thaliana with 12 samples.

Results

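The RNA described here is the chloroplast RNA of the inputs, that is, the RNA of a filtered and cleared soluble extract of seedlings, kept aside before any immunoprecipitation, in 2 Arabidopsis thaliana lines. The authors had cut both strands of the chloroplast genome into segments with DiffSegR, and all 574 segments of the input comparison were taken, of 1129 segments in the series, in 6 of its 12 libraries. The AtMKIP1-YFP line carried a UBQ10-driven AtMKIP1-YFP transgene in mkip1-2 -/- plants and is thus a complemented mutant, which still grew a little more slowly than its controls. The AtBE3-YFP line carried a UBQ10-driven AtBE3-YFP transgene in Col-0, so it kept its own MKIP1 gene and served as the control line. AtBE3 is a starch-branching enzyme of the chloroplast, and AtMKIP1 is related to such enzymes by sequence. Each line therefore differed from the other in its background, its transgene and its YFP fusion, and these cannot be told apart. Seedlings of both lines were 10 days old, were grown under 12 h of light on MS medium with 15 mg/L Basta, and each of the 3 libraries per line came from a pool of about 10 g of seedlings. MKIP1 is a nuclear gene and the counts cover the chloroplast genome alone, so the genotype could not be checked against the counts. The comparison asks how far the plastid transcriptomes of the 2 lines are alike before any protein is pulled down.

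A plastid genome is transcribed by a bacterial-type polymerase, whose core is itself encoded in the plastid, and by phage-type nuclear-encoded polymerases. Most of its genes lie in long transcription units, which are cut, trimmed, spliced and edited by nuclear-encoded proteins, so the level of an RNA reflects its stability as well as its synthesis. The ribosomal RNAs and tRNAs come from such units too, and the photosystem II genes psbA, psbD and psbC encode reaction centre and antenna proteins whose transcripts respond to light. psbD is known for several promoters, one of them a light-responsive promoter far upstream of its reading frame.

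Between 2213500 and 2868106 reads per AtMKIP1-YFP library and between 2241732 and 2740959 per AtBE3-YFP library mapped to the chloroplast genome. They were 24.0 ± 1.71% of the kept reads in AtMKIP1-YFP and 25.3 ± 0.0897% in AtBE3-YFP (SD, n = 3 each; exact permutation test, two-sided, p = 0.40, where the smallest p that 3 libraries against 3 can give is 0.1). Fewer chloroplasts and less RNA per chloroplast cannot be told apart in such bulk samples, and levels relative to mapped chloroplast reads do not show a change in their total. The segments had a median length of 27 nt. The lowest count of any segment in a library was 3, so no segment was without reads. Levels are given as reads per kilobase per 1000000 mapped reads, with 38 nt added to each segment's length because a read of 18 to 60 nt is counted in every segment it touches. Coordinates are those of the TAIR10 chloroplast genome, Pt, in which the second inverted repeat copy beyond base 129489 was not counted separately. Genes of the repeat thus collect the reads of both copies, except where 1275 nt of the second copy were left before that base. These match the truncated ycf1 copy and part of ycf1, whose reads are not pooled in this way. A gene takes the mean level of the segments over its exons. Of 113 genes, 39 had segments of their own, that is, at least 50% of their exon bases lay in segments that were mostly inside them. The other 74 share long mixed segments with neighbours, and their levels are borrowed.

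Ribosomal RNA dominated the inputs of both lines although an rRNA depletion step had been used. It took 72.4, 68.1 and 69.8% of reads by base in AtMKIP1-YFP, against 71.7, 72.5 and 69.0% in AtBE3-YFP. The libraries of the lines overlapped, and the means, 70.1 ± 2.20% in AtMKIP1-YFP and 71.1 ± 1.84% in AtBE3-YFP, differed by less than their spread (SD, n = 3 each; exact permutation test, two-sided, p = 0.60, adjusted p = 0.84 over 7 classes). A single 1064-nt segment in the 3′ part of rrn23S, at Pt 106424-107487 on the plus strand, held 29.2% of all segment counts. Together with both segments of rrn16S it made up 61.9%, and the 20 segments with most counts made up 82.7%. The plus strand, on which the counted copy of the rRNA operon lies, held 84.5%.

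rrn16S, the small-subunit rRNA, had the highest gene level. It stood at 204428, 202252 and 206597 in AtMKIP1-YFP, against 216522, 214873 and 224876 in AtBE3-YFP. All 3 AtMKIP1-YFP libraries were lower, but the log2 fold change was only -0.09 ± 0.05 (SE; edgeR quasi-likelihood adjusted p = 0.59). rrn23S, the large-subunit rRNA, followed at 143233, 128540 and 131883 in AtMKIP1-YFP, against 132684, 137116 and 119150 in AtBE3-YFP. Its libraries overlapped, and the interval of the log2 fold change, taken as 2 SE on either side, ran from -0.04 to 0.15. rrn5S had a mean level of 38329 ± 6317 in AtMKIP1-YFP and 42033 ± 7048 in AtBE3-YFP (SD, n = 3 each). rrn4.5S lay in a segment shared with the 23S end and the spacer, whose mean level was 91272 ± 1922 in AtMKIP1-YFP and 90275 ± 5787 in AtBE3-YFP (SD, n = 3 each).

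The level along rrn23S was far from even in both lines. Bases up to 513 of the 23S RNA had a mean level of 90624 in AtMKIP1-YFP and 88395 in AtBE3-YFP. Bases 659 to 911 stood at 1461 ± 247 in AtMKIP1-YFP and 1551 ± 356 in AtBE3-YFP, the lowest stretch of the molecule. From base 1734 on, the level was 296042 ± 17803 in AtMKIP1-YFP and 281681 ± 20262 in AtBE3-YFP (SD, n = 3 each). The plastid 23S rRNA is known to be cut at internal sites after ribosome assembly, and the inputs had also been depleted of rRNA. The part of either in the profile was not tested. The sequence over the step at base 1734, which carries the highest level in the genome, is shown with the first bases of the high segment in capitals, as plus-strand DNA letters of Pt 106409-106438.
rrn23S step: gccccgtaacttcggGAGAAGGGGTGCCTC
In the segment of bases 1537 to 1642 the level was 9145, 7030 and 10155 in AtMKIP1-YFP, against 17099, 10607 and 8558 in AtBE3-YFP, with AtBE3-YFP replicate 1 far above the rest. That segment had the lowest p of the 12 ribosomal RNA segments, with a log2 fold change of -0.46 ± 0.16 (SE; edgeR adjusted p = 0.13), and its libraries overlapped. None of the 12 was called in this test, whereas with mapped reads outside rRNA as library size this segment was called as lower. Their median log2 fold change was -0.12, against 0.07 over all 572 segments tested.

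**Figure D1:**
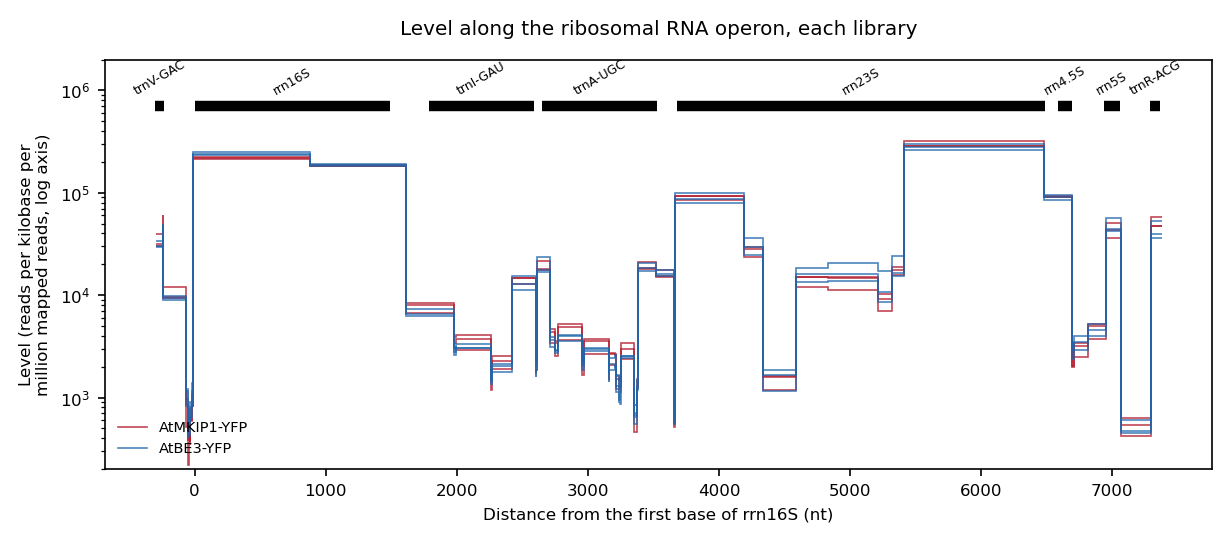
Level of each segment (y axis, reads per kilobase per 1000000 mapped reads, log axis) against the distance from the first base of rrn16S (x axis, nt), 1 line per library, with the genes as black bars. The 3 AtMKIP1-YFP and 3 AtBE3-YFP libraries run together, at 1461 ± 247 in AtMKIP1-YFP and 1551 ± 356 in AtBE3-YFP in the lowest stretch of rrn23S, and at 296042 ± 17803 in AtMKIP1-YFP and 281681 ± 20262 in AtBE3-YFP in its 3′ part (SD).

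**Figure D2:**
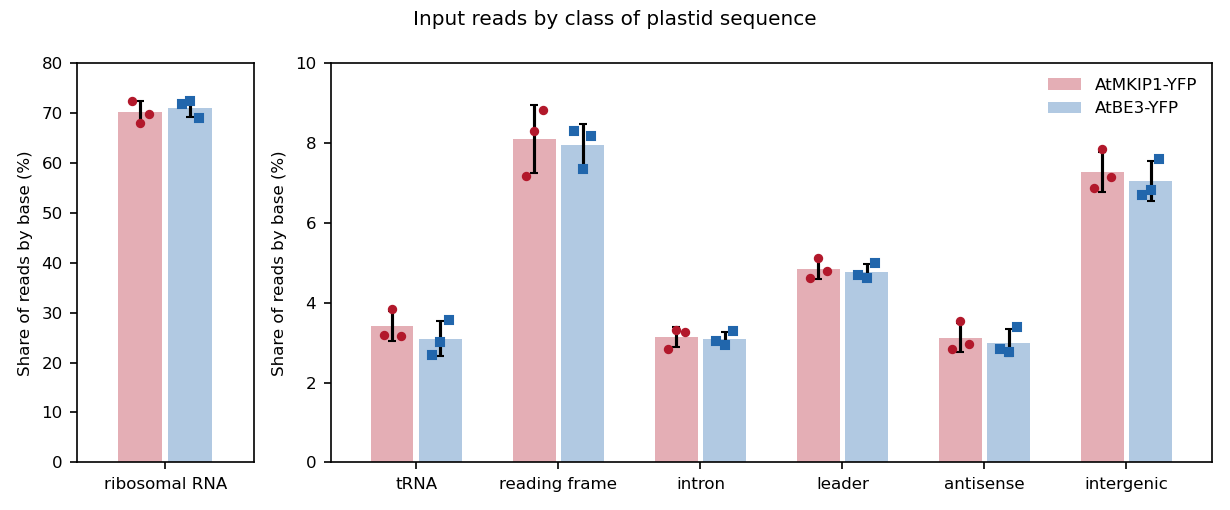
Share of input reads by base (y axis, %) in each class of plastid sequence, with bars for the mean, error bars for the SD and a point for each of the 3 libraries per line. In each of the 7 classes the libraries of the lines overlap, and ribosomal RNA takes 70.1 ± 2.20% in AtMKIP1-YFP and 71.1 ± 1.84% in AtBE3-YFP.

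The remaining reads were spread over 6 classes, none of which differed between the lines beyond the spread of the libraries. Reading frames took 8.10 ± 0.848% in AtMKIP1-YFP and 7.95 ± 0.516% in AtBE3-YFP. Stretches between genes took 7.28 ± 0.50% in AtMKIP1-YFP and 7.03 ± 0.50% in AtBE3-YFP. Leaders, the up to 200 nt upstream of a gene, took 4.84 ± 0.245% in AtMKIP1-YFP and 4.76 ± 0.198% in AtBE3-YFP. tRNAs took 3.41 ± 0.383% in AtMKIP1-YFP and 3.10 ± 0.44% in AtBE3-YFP. Introns took 3.14 ± 0.257% in AtMKIP1-YFP and 3.09 ± 0.174% in AtBE3-YFP, and bases antisense to a gene took 3.12 ± 0.363% in AtMKIP1-YFP and 3.00 ± 0.337% in AtBE3-YFP (SD, n = 3 each in all). The exact permutation p-values of these 6 classes ran from 0.40 to 0.90, all with an adjusted p of at least 0.84. The sizes and order of the classes depend on how bases are assigned. With leaders of up to 500 nt, leaders took 8.86% in AtMKIP1-YFP and 8.71% in AtBE3-YFP. Stretches between genes then took 3.27% in AtMKIP1-YFP and 3.08% in AtBE3-YFP. With each segment given whole to 1 class, introns took 1.15% in AtMKIP1-YFP and 1.11% in AtBE3-YFP, and reading frames 11.3% and 11.1%. These shares assume even coverage within a segment, and 37 segments longer than 1000 nt hold 40.8% of the counts. Most of that is the 1064-nt segment of rrn23S, which is all rRNA and alone holds 29.2%.

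Below rrn16S, rrn23S and the shared segment of rrn4.5S, tRNAs had the highest levels, with rrn5S among them. Of the 15 highest genes by the mean of all libraries, 10 encoded tRNAs, 4 rRNAs and 1 a protein, psbA. The place of psbA was not firm. trnC-GCA was above it in AtMKIP1-YFP, at 16770 ± 2296 against 15799 ± 1173, and below it in AtBE3-YFP, at 14660 ± 2452 against 16910 ± 1519 (SD, n = 3 each). With a read length of 18 nt trnC-GCA took its place. trnE-UUC, whose glutamyl-tRNA also feeds chlorophyll and haem synthesis, led the tRNAs with 60387, 69317 and 55806 in AtMKIP1-YFP, against 41092, 58426 and 64074 in AtBE3-YFP. trnR-ACG followed with 48821 ± 5549 in AtMKIP1-YFP and 41123 ± 8528 in AtBE3-YFP. trnH-GUG had 46127 ± 6387 in AtMKIP1-YFP and 42524 ± 7080 in AtBE3-YFP, trnG-GCC had 45788 ± 5536 in AtMKIP1-YFP and 40997 ± 5930 in AtBE3-YFP, and trnG-UCC had 41441 ± 3188 in AtMKIP1-YFP and 36297 ± 5629 in AtBE3-YFP (SD, n = 3 each). The order from trnR-ACG down to trnG-UCC lies within the SDs. trnQ-UUG, trnT-GGU and trnV-GAC came next, at means between 32358 and 25103 in AtMKIP1-YFP and between 29284 and 23180 in AtBE3-YFP. trnP-UGG and trnA-UGC, whose levels are borrowed in part from the segments around them, stood at 22949 ± 2596 and 18670 ± 1764 in AtMKIP1-YFP, against 21055 ± 1099 and 18810 ± 2659 in AtBE3-YFP (SD, n = 3 each). trnN-GUU was the lowest of the 10 tRNAs with segments of their own, at 12152 ± 2216 in AtMKIP1-YFP and 10673 ± 2133 in AtBE3-YFP (SD, n = 3 each). In 12 of the 14 tRNA genes tested the log2 fold change was above 0, with a median of 0.15, against 0.06 over all 62 features tested. The exceptions, trnL-UAA and trnV-UAC, were counted in intron segments alone, so their values are not those of the tRNA. The sums of trnG-UCC, trnI-GAU and trnA-UGC also include intron segments. None of the 14 was called at an adjusted p under 0.01.

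Among the mRNAs, psbA, which encodes the D1 protein of photosystem II, stood highest in its 3′ part. The 178-nt segment inside its frame, Pt 629-806 on the minus strand, had a level of 34054, 37236 and 39197 in AtMKIP1-YFP, against 41732, 36224 and 41963 in AtBE3-YFP, the highest of any reading-frame segment in both lines. The 5′ part of psbA, from base 807 on, was counted in one 5822-nt segment with trnK-UUU, matK and rps16. Its level was 9027 ± 706 in AtMKIP1-YFP and 9090 ± 490 in AtBE3-YFP (SD, n = 3 each). The bases 3′ of the 178-nt segment lay in other segments, and 32.6% of psbA lay in segments of its own. The gene mean of 15799 ± 1173 in AtMKIP1-YFP and 16910 ± 1519 in AtBE3-YFP is therefore borrowed in part. Those of the other 3 genes are not their own. rbcL, the large subunit of Rubisco, had the highest level of the reading frames with segments of their own, at 6931, 8076 and 9187 in AtMKIP1-YFP, against 8656, 7025 and 7870 in AtBE3-YFP. psbC, the CP43 antenna protein of photosystem II, came next with 5768 ± 889 in AtMKIP1-YFP and 5096 ± 183 in AtBE3-YFP, and its SDs did not reach rbcL's (SD, n = 3 each).

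Levels differed widely between the genes of one complex, and the pairs given here stood in the same order in both lines. Not all genes did, since psbD was above psbJ in AtMKIP1-YFP, at 3295 against 3235, and below it in AtBE3-YFP, at 2573 against 3276. Within photosystem II, psbN, an assembly factor, had 4709 ± 550 in AtMKIP1-YFP and 3798 ± 168 in AtBE3-YFP, and psbI, a small subunit and the lowest of the list with segments of its own, had 467 ± 39.4 in AtMKIP1-YFP and 541 ± 63.7 in AtBE3-YFP. In photosystem I, the reaction centre gene psaB had 1818 ± 234 in AtMKIP1-YFP and 1720 ± 156 in AtBE3-YFP, and psaC, an iron-sulphur subunit, had 812 ± 80.8 in AtMKIP1-YFP and 842 ± 91.4 in AtBE3-YFP. In the cytochrome b6f complex, petN, a small subunit, had 2362 ± 251 in AtMKIP1-YFP and 2207 ± 216 in AtBE3-YFP, whereas petA, cytochrome f, had 284 ± 41.4 in AtMKIP1-YFP and 266 ± 25 in AtBE3-YFP. Among ATP synthase genes, atpH, the membrane ring subunit, had 2385 ± 301 in AtMKIP1-YFP and 2427 ± 144 in AtBE3-YFP, and atpI, the a subunit of the same transcription unit, had 318 ± 47.9 in AtMKIP1-YFP and 317 ± 18.2 in AtBE3-YFP (SD, n = 3 each in all). Within each of these pairs the SDs did not meet in either line.

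The lowest levels were found over rpl32, over the polymerase genes that share a segment with rps2, and over ycf1. rps14, the single ribosomal protein gene with segments of its own, had 1603 ± 179 in AtMKIP1-YFP and 1476 ± 96.4 in AtBE3-YFP. ndhG, of the NADH dehydrogenase-like complex, had 141 ± 26.4 in AtMKIP1-YFP and 162 ± 8.75 in AtBE3-YFP. ycf4, which helps to assemble photosystem I, had 155 ± 17.1 in AtMKIP1-YFP and 164 ± 27.6 in AtBE3-YFP. ycf1, a subunit of the protein import channel, had 33.8 ± 4.12 in AtMKIP1-YFP and 36.2 ± 5.36 in AtBE3-YFP, the lowest of the 39 (SD, n = 3 each). Its segment of 8561 nt also covers ndhH, rps15 and ndhA exon 1, which have the same level, so this value is not of ycf1 alone. rpoB, rpoC1 and rpoC2, the core of the bacterial-type polymerase, share a 13803-nt segment with rps2 whose level was 22.6, 28.5 and 31.5 in AtMKIP1-YFP, against 27.1, 22.8 and 27.3 in AtBE3-YFP. rpoA, the remaining core subunit, has the borrowed level 54.3 ± 8.87 in AtMKIP1-YFP and 54.8 ± 8.31 in AtBE3-YFP, and rpl23, the highest large-subunit ribosomal protein gene, the borrowed level 629 ± 89.2 in AtMKIP1-YFP and 625 ± 68.9 in AtBE3-YFP. The truncated ycf1 copy and rpl32 lie in the segment with the lowest level over any gene, 20.4 ± 4.44 in AtMKIP1-YFP and 21.8 ± 3.51 in AtBE3-YFP (SD, n = 3 each). From these to rrn16S the levels cover about 4 orders of magnitude in each line.

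**Figure D3:**
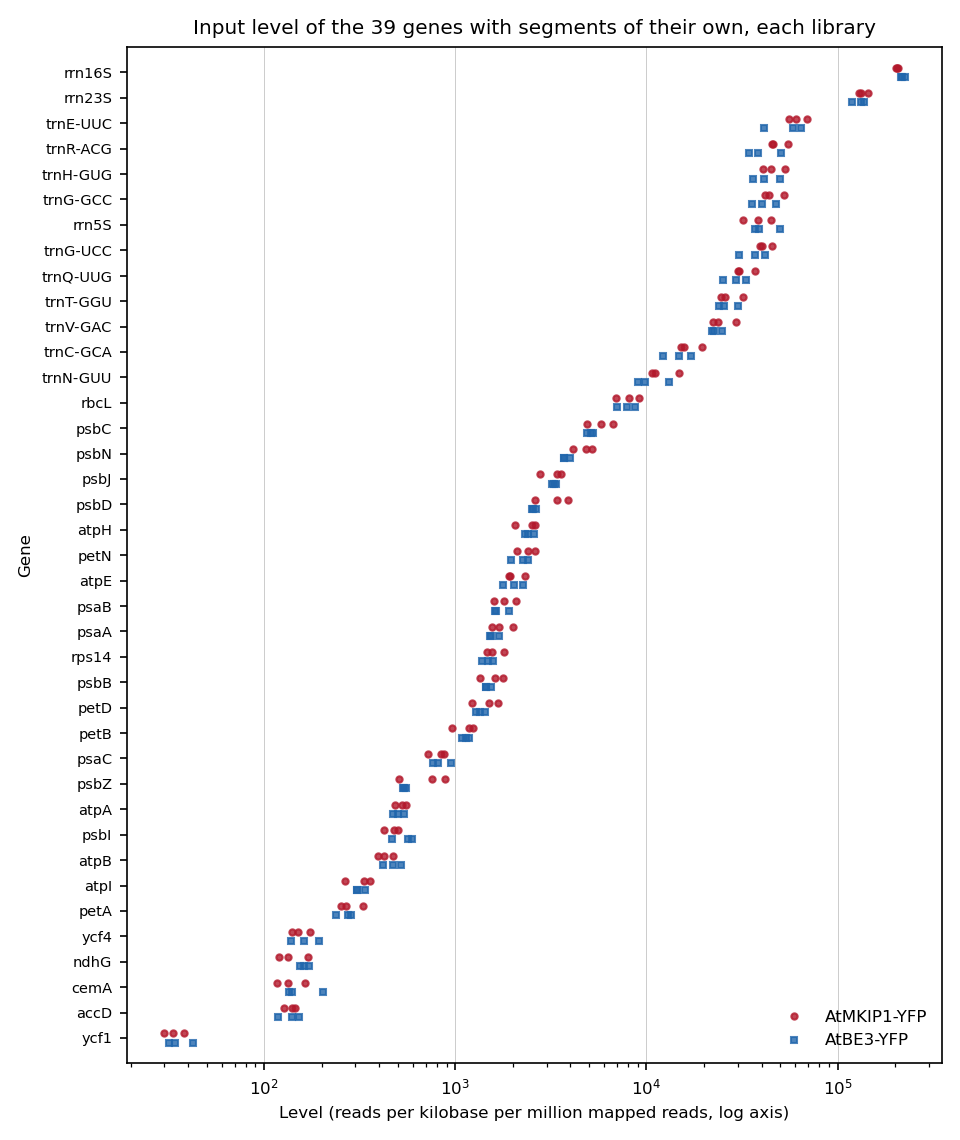
Input level (x axis, reads per kilobase per 1000000 mapped reads, log axis) of each of the 39 genes with segments of their own, ordered by mean level, with 1 point per library and AtMKIP1-YFP above AtBE3-YFP. rRNAs and tRNAs occupy the upper 13 rows, rbcL follows, and ycf1 is lowest at 33.8 ± 4.12 in AtMKIP1-YFP and 36.2 ± 5.36 in AtBE3-YFP (SD).

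Segments classed as leader, intron or intergenic were highest in the rRNA operon and at tRNA genes. The highest leader segment was one of 138 nt between trnA-UGC and rrn23S, with 16004 in AtMKIP1-YFP and 16333 in AtBE3-YFP on average. It was 94.2% leader and begins in the last bases of trnA-UGC. The highest intron segment was the 3′ end of the trnA-UGC intron, with 19009 in AtMKIP1-YFP and 18714 in AtBE3-YFP, although it also holds exon bases. The highest segment classed as intergenic, Pt 47401-47926 on the plus strand, begins in trnL-UAA and so contains its second exon, with 12643 in AtMKIP1-YFP and 11527 in AtBE3-YFP. Of 20 annotated introns, 10 had a segment of their own, and for 4 an exon could be set beside the intron. The atpF intron, removed from an ATP synthase mRNA, stood close to its exon, at a log2 ratio of intron to exon of -0.32, -0.48 and -0.41 in AtMKIP1-YFP, against -0.15, -0.34 and -0.36 in AtBE3-YFP. This closeness rests in part on the read length added to each segment. Without it the log2 ratio was -1.17, -1.23 and -1.21 in AtMKIP1-YFP, against -0.81, -1.01 and -1.11 in AtBE3-YFP. The value is also not that of the intron alone, since a 1281-nt segment counted for it covers exon 2 as well. Exon 2 had a level of 327 ± 26.0 in AtMKIP1-YFP and 355 ± 38.4 in AtBE3-YFP. Over the intron it was 330 ± 26.8 in AtMKIP1-YFP and 357 ± 38.1 in AtBE3-YFP (SD, n = 3 each). The ratio was taken to exon 1. The petB and petD introns, of cytochrome b6f mRNAs, stood lower, at -2.01 ± 0.0358 and -2.16 ± 0.092 in AtMKIP1-YFP, against -2.06 ± 0.131 and -2.13 ± 0.0859 in AtBE3-YFP. The trnG-UCC intron was lowest relative to its exon, at -5.25 ± 0.105 in AtMKIP1-YFP and -5.05 ± 0.188 in AtBE3-YFP (SD, n = 3 each). No ratio differed between the lines by more than the test could see (exact permutation tests, two-sided, p from 0.30 to 0.60, adjusted p = 0.60 over 4 introns). Over the 10 introns tested as sums of counts, the log2 fold changes were -0.44 for trnL-UAA, -0.17 for rpl16, -0.13 for trnV-UAC, -0.13 for trnG-UCC, -0.11 for atpF, 0.04 for petB, 0.11 for rpl2, 0.11 for trnA-UGC, 0.11 for petD and 0.14 for trnI-GAU. Their median was -0.03 and none was called.

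RNA antisense to genes could hardly be placed, because 13 of the 15 segments classed as antisense held less than 80% antisense bases. The highest, 3841 nt of plus strand across ndhC, ndhK and ndhJ with a tRNA end inside it, had 826 ± 160 in AtMKIP1-YFP and 773 ± 160 in AtBE3-YFP. The next were segments opposite ycf2 and psaA, at 629 ± 89.2 and 505 ± 72.1 in AtMKIP1-YFP, against 625 ± 68.9 and 475 ± 52.9 in AtBE3-YFP. They were followed by a 2-nt segment wholly opposite psbN, in the stretch between psbT and psbH, with 465 ± 42.0 in AtMKIP1-YFP and 402 ± 29.0 in AtBE3-YFP, and by a segment opposite ycf1, with 417 ± 57.7 in AtMKIP1-YFP and 409 ± 55.5 in AtBE3-YFP (SD, n = 3 each). The segment opposite ycf2 also holds trnI-CAU, trnL-CAA and rpl23 on its own strand, and its level is the one given for rpl23. That opposite psaA holds trnS-GGA, and that opposite ycf1 holds trnL-UAG and ccsA. Reads of these genes and antisense reads cannot be told apart here. None of the 15 was called, and their median log2 fold change was 0.01.

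Against this common background, 10 of 572 segments tested differed between the lines (edgeR quasi-likelihood test, adjusted p under 0.01 over all segments). Of these 9 were higher in AtMKIP1-YFP, which is 1.57% of the segments tested, and 1 was lower, which is 0.175%. With TMM scaling 2 were higher and 2 lower, and with mapped reads outside rRNA as library size 8 were higher and 3 lower. The 9 lay around psbD, psbZ and psbB, all genes of photosystem II, and 8 of them in the psbD-psbC-psbZ transcription unit. Their places were set by DiffSegR on the same comparison that is tested, so the p-values do not allow for the choice of borders. The median log2 fold change over all segments was 0.07, 5 segments differed by more than 2-fold, and 91 had an unadjusted p under 0.05. The levels of the lines did not overlap in 80 segments, 14% of those tested, and in 9 of the 10 called.

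The difference with the smallest p was in a 30-nt segment upstream of psbD, the gene of the D2 protein of the photosystem II reaction centre. It lies at Pt 31898-31927 on the plus strand, 813 to 784 nt before the reading frame, between trnT-GGU and psbD and outside any annotated gene. Its sequence is given as that of the leading call, in capitals throughout since all of it is the segment, as plus-strand DNA letters.
psbD upstream segment: TAGAGAAAGAGAGTATTTTTGCAAAGTAAT
The segment had a level of 1016, 1594 and 1784 in AtMKIP1-YFP, against 579, 774 and 676 in AtBE3-YFP. All 3 AtMKIP1-YFP libraries were higher than any AtBE3-YFP library, and AtMKIP1-YFP replicate 1 was the closest to them. The log2 fold change was 1.12 ± 0.19 (SE; edgeR adjusted p = 3.2e-06). The 61-nt segment before it, 874 to 814 nt upstream, had 899, 1333 and 1585 in AtMKIP1-YFP, against 531, 712 and 630 in AtBE3-YFP, a log2 fold change of 1.04 ± 0.19 (adjusted p = 8.9e-06). These 2 segments were called in every alternative in which they were tested, including each that left out 1 library. The other 8 called segments were not.

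The higher level was not limited to these 2 segments. The 43 nt at the start of the stretch had 435, 633 and 822 in AtMKIP1-YFP, against 293, 391 and 350 in AtBE3-YFP (log2 fold change 0.89 ± 0.20, adjusted p = 0.0020). Segments 783 to 747 nt and 652 to 578 nt upstream had log2 fold changes of 0.83 ± 0.20 and 0.75 ± 0.19 (adjusted p = 0.0030 and 0.0073), and in the second of them the libraries overlapped. The segment before the stretch, which runs on from trnT-GGU, had 6256, 7957 and 6556 in AtMKIP1-YFP, against 6382, 5954 and 7503 in AtBE3-YFP, with a log2 fold change of 0.07. Level and log2 fold change both step at this border behind trnT-GGU, which DiffSegR set on the same comparison. At the much higher level before it, a difference of the size found after it could not be seen. Where the difference begins was therefore not tested.

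From this point to 142 nt beyond psbZ, the log2 fold change was above 0 in 63 of 64 segments, with a median of 0.40. The borders of this stretch were chosen after the values were seen and neighbouring segments share reads, so the count is a description. In the distal 503 nt of the psbD upstream region the level was 532, 741 and 902 in AtMKIP1-YFP, against 368, 463 and 451 in AtBE3-YFP, a ratio of 1.70. In the 414 nt next to psbD it was 1263, 1640 and 1887 in AtMKIP1-YFP, against 1323, 1302 and 1232 in AtBE3-YFP, a ratio of 1.24. Over the psbD frame up to psbC it was 2519, 3303 and 3775 in AtMKIP1-YFP, against 2375, 2439 and 2544 in AtBE3-YFP, a ratio of 1.30. Over psbC it was 4885, 5758 and 6662 in AtMKIP1-YFP, against 5253, 4894 and 5140 in AtBE3-YFP, a ratio of 1.13, and the lines overlapped. The ratio was thus higher at the upstream end than over the abundant psbC frame, but whether it differs along the unit was not tested.

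AtMKIP1-YFP replicate 1 was the lowest of its line in each of these stretches and lay within or below the AtBE3-YFP range from the proximal upstream region through the psbZ frame, and above it at both ends. It was also the library of its line with the highest rRNA share, 72.4%, against 68.1 and 69.8% in the other two, and the part of this in the result was not tested. Without it the ratio in the distal upstream region was 1.92, and without AtMKIP1-YFP replicate 3 it was 1.49. Leaving out replicate 1 gave 30 called segments, 29 of them higher, among them the 10. Leaving out AtMKIP1-YFP replicate 2, AtMKIP1-YFP replicate 3 or AtBE3-YFP replicate 3 gave 2, and leaving out AtBE3-YFP replicate 1 or 2 gave 4.

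**Figure D4:**
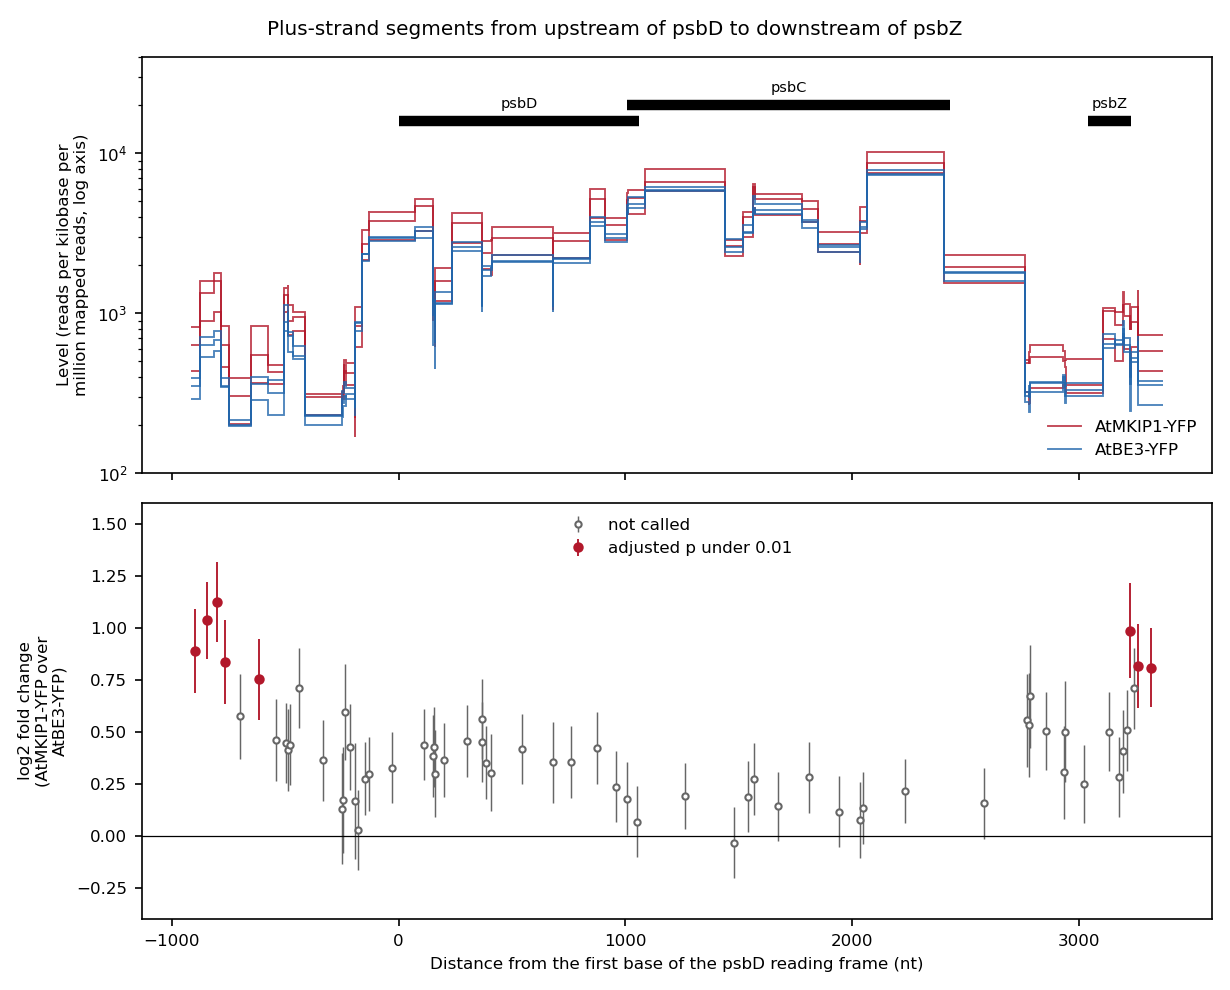
Upper panel, level of each plus-strand segment (y axis, reads per kilobase per 1000000 mapped reads, log axis), 1 line per library. Lower panel, its log2 fold change of AtMKIP1-YFP over AtBE3-YFP with the SE, filled where the adjusted p was under 0.01, both against the distance from the first base of the psbD frame (nt). The 8 called segments lie at the 2 ends, and 63 of the 64 segments are above 0.

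At the other end of the unit lies psbZ, a small photosystem II subunit. The 2-nt segment at Pt 35936-35937, which reaches into the first base of the stop codon, had 407, 791 and 793 in AtMKIP1-YFP, against 401, 245 and 359 in AtBE3-YFP. The lowest AtMKIP1-YFP library barely exceeded the highest AtBE3-YFP library, and the counts were 36, 82 and 91 in AtMKIP1-YFP, against 44, 22 and 35 in AtBE3-YFP. The log2 fold change was 0.99 ± 0.23 (adjusted p = 0.0022). It is shown in capitals within its 14 flanking bases on either side, Pt 35922-35951 on the plus strand.
psbZ end: aattctcttatctcTTgaattcattcgttg
Downstream of the frame, the 111 nt from 32 to 142 nt beyond psbZ had 434, 577 and 732 in AtMKIP1-YFP, against 355, 377 and 267 in AtBE3-YFP (log2 fold change 0.81 ± 0.19, adjusted p = 0.0024). The 2 nt before it had 881, 1109 and 1395 in AtMKIP1-YFP, against 675, 725 and 534 in AtBE3-YFP (0.82 ± 0.20, adjusted p = 0.0043). The whole stretch downstream of psbZ had a ratio of 1.71, which was 1.94 without AtMKIP1-YFP replicate 1 and 1.49 without AtMKIP1-YFP replicate 3. A segment of 2 nt counts much the same reads as its neighbours and adds little of its own.

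The remaining calls were at psbB, which encodes the CP47 antenna protein of photosystem II. A 23-nt segment, 235 to 213 nt before its frame, had 185, 285 and 383 in AtMKIP1-YFP, against 173, 110 and 108 in AtBE3-YFP. The log2 fold change was 1.13 ± 0.27 (adjusted p = 0.0024) at counts of 25, 45 and 67 in AtMKIP1-YFP, against 29, 15 and 16 in AtBE3-YFP. The only segment that was lower was 9 nt long and lay 13 to 21 nt behind the psbB frame, upstream of psbT. It had 221, 197 and 171 in AtMKIP1-YFP, against 388, 342 and 419 in AtBE3-YFP, a log2 fold change of -0.98 ± 0.26 (adjusted p = 0.00999). The adjacent 10 nt had 216, 249 and 203 in AtMKIP1-YFP, against 441, 353 and 393 in AtBE3-YFP, at -0.83 ± 0.25 (adjusted p = 0.035), and all 5 segments of the psbB-psbT spacer were below 0. Both called segments are shown in capitals with their flanks, Pt 72133-72161 and Pt 73900-73928 on the plus strand.
psbB upstream: cttGGTTCATAGAAAATAGGATTAACccc
behind psbB: caacattgctTTTTTTCTTctagtttctg
The psbB frame itself had 1339, 1605 and 1772 in AtMKIP1-YFP, against 1528, 1453 and 1439 in AtBE3-YFP, a log2 fold change of 0.09 ± 0.17 (adjusted p = 0.80), with overlapping libraries. The difference at its borders therefore did not extend as a called change into the frame, and border and frame were not tested against each other.

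**Figure D5:**
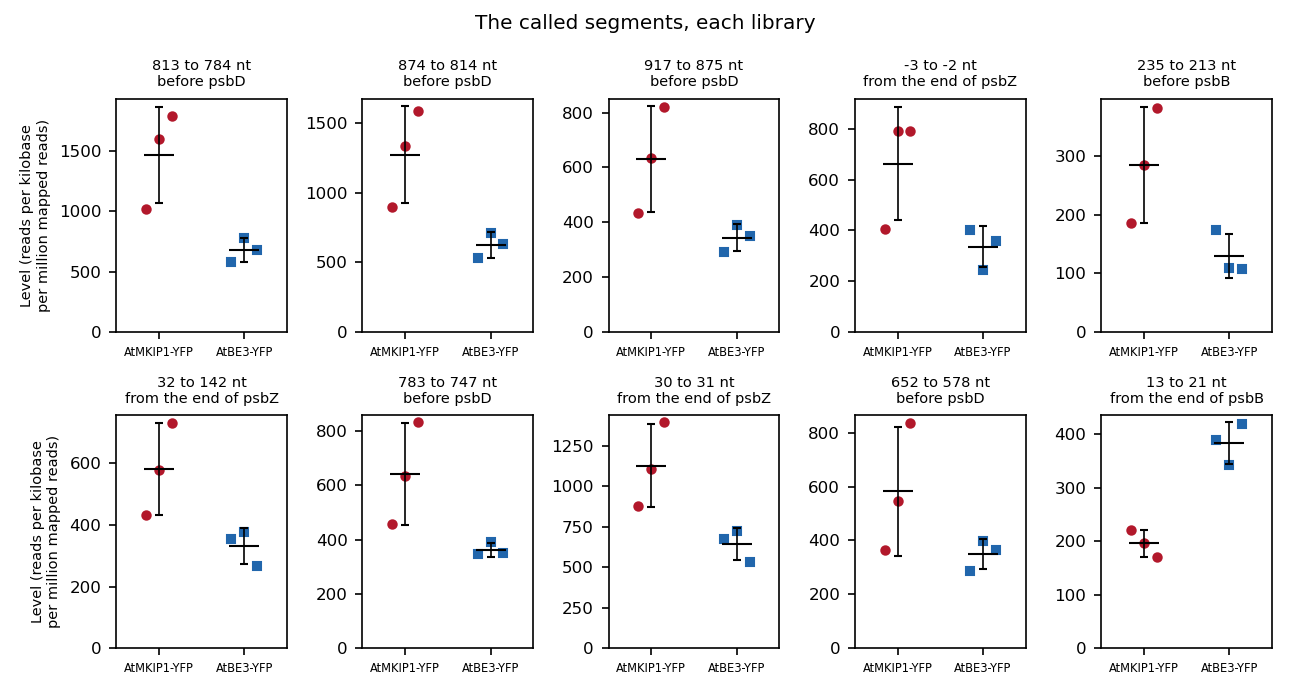
Level (y axis, reads per kilobase per 1000000 mapped reads, from 0) of the 10 called segments in each of the 3 AtMKIP1-YFP and 3 AtBE3-YFP libraries, with the mean and SD as black bars. In 9 panels the libraries of the lines do not overlap; in the segment 652 to 578 nt before psbD, AtMKIP1-YFP replicate 1 lies among the AtBE3-YFP libraries.

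Over whole genes, exons and introns no difference passed the test. Of 62 features tested, 48 of them genes, 4 single exons and 10 introns, 0 were higher and 0 lower (0% in either direction, edgeR adjusted p under 0.01), and 5 had an unadjusted p under 0.05. DESeq2 with its own size factors called 5. For each of the 62, the log2 fold change with 2 SE on either side stayed within 2-fold. psbZ had the highest log2 fold change, 0.47 ± 0.16 (adjusted p = 0.088), at levels of 508, 753 and 883 in AtMKIP1-YFP, against 532, 540 and 552 in AtBE3-YFP. psbD had 0.34 ± 0.17 (adjusted p = 0.52), and psbN 0.31 ± 0.15 (adjusted p = 0.52). The 7 photosystem II genes tested had a median of 0.18, the 3 photosystem I genes 0.09, the 4 cytochrome b6f genes 0.06, the 6 ATP synthase genes -0.04 and the 3 NDH genes -0.15, against 0.06 over all 62 features.

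The lowest feature was the intron of trnL-UAA, the group I intron of the plastid genome, at -0.44 ± 0.15 (adjusted p = 0.088). Its value rests on 9 segments, 1 of which had too few counts to be tested alone, and the gene trnL-UAA has the same value because the same segments make it up. The longest, 288 nt inside the intron, had 599, 651 and 665 in AtMKIP1-YFP, against 902, 836 and 868 in AtBE3-YFP. The AtMKIP1-YFP libraries were all lower, with a log2 fold change of -0.44 ± 0.17 (adjusted p = 0.17). The 8 tested segments were all below 0, down to -1.84 ± 0.51 in a 4-nt segment with 3, 3 and 5 counts in AtMKIP1-YFP, against 15, 11 and 13 in AtBE3-YFP (adjusted p = 0.014). It is shown in capitals with its flanks, Pt 47287-47316 on the plus strand, as the lowest log2 fold change of any segment.
trnL-UAA intron: cgaagtttaagaaATAAtatttcttgatta
With TMM scaling and with DESeq2 the intron was called, at -0.46 ± 0.09 (edgeR adjusted p = 5.9e-05) and -0.47 ± 0.06 (DESeq2 adjusted p = 3.9e-12). With counts weighted by the share of each segment inside the feature it was not, at -0.07 (edgeR adjusted p = 0.88). This weighting gives the level over all bases of the intron, which includes the start of the abundant tRNA exon segment. That level was 1484 ± 103 in AtMKIP1-YFP and 1559 ± 61.1 in AtBE3-YFP (SD, n = 3 each), and the libraries overlapped. It is 1 measure, and not a second reading of the intron segments alone.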

How the data were processed

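RNA of 6 input libraries (3 pools of seedlings per line) had been treated with DNase, depleted of rRNA, fragmented and sequenced from one end after ligation with 8-nt unique molecular identifiers. The authors kept reads of 18 to 60 nt (Cutadapt), mapped them with STAR to the TAIR10 chloroplast genome, removed duplicates by the identifiers with umi_tools and set segments with DiffSegR. The header of the inputs' mapped reads does not say whether they were counted before or after duplicates were removed. The deposited counts are whole reads per segment and library, and the authors' table of library statistics gives mapped reads, used here as library size without a further factor; both were checked to be whole numbers. The counts per mapped read averaged 1.09 in AtMKIP1-YFP and 1.08 in AtBE3-YFP, and the counts divided by lengths plus 38 nt returned 98.9 to 99.5% of the mapped reads. The authors' own fold changes and p-values, and the precipitate libraries, were not used here. Segments were assigned by start, end and strand to the RefSeq annotation of the same sequence (rrn5S by sequence match, at Pt 107949-108069).

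Segments and features (genes, exons and introns, as sums of segments with at least 50% of their bases inside) were fitted with edgeR 4.0.16 in R 4.3.3 (glmQLFit, low counts filtered with filterByExpr at 10 per library and 15 in all, 6 libraries, no covariate), tested on simulated data, and Benjamini-Hochberg adjusted over all segments or all features. The filter left out 2 of 574 segments, 1 in the trnL-UAA intron and 1 between genes. DESeq2 1.42.0 was an alternative. SE is the log2 fold change divided by the square root of F. Shares, ratios and library measures were compared with exact permutation tests (scipy 1.17.1). The genes named are all calls, the 6 features of smallest p where none was called, the 15 highest and 5 lowest genes, the rRNAs, the introns with a ratio, the highest and lowest member of each gene list, and the highest segments of each class; other names were chosen after their values were seen. The members and lists were chosen with earlier results of these data known. Same-numbered libraries of the lines had correlations of 0.11, 0.04 and -0.13, so the numbers do not pair them. p-values measure the spread between seedling pools only.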

Additional observations from a re-analysis of the deposited data

How the results depend on the processing

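Counts of called segments, 10 with mapped reads as library size, were 4 with TMM, 6 with DESeq2 and its own size factors, 2 with DESeq2 and mapped reads as size factors, 3 among segments of 60 nt or more and 2 with a replicate block, and ran from 2 to 30 when each library was left out. The block, 1 term per replicate number, called only the 2 strongest psbD segments. They were 9 without the filter, 10 with summed counts as library size, 11 with reads outside rRNA as library size and 14 at an adjusted p under 0.05. Called features, 0 in the main test, were 3 with TMM (psbZ higher, trnL-UAA and its intron lower), 5 with DESeq2 and its own size factors (psbZ and psbN higher, ndhB, trnL-UAA and its intron lower), 2 with reads outside rRNA as library size (trnL-UAA and its intron), and 0 to 1 when each library was left out (psbZ without AtMKIP1-YFP replicate 1). The replicate block called 0 features. The library size outside rRNA and both comparisons restricted to own segments or to segments at least 80% in 1 class were chosen after seeing the data. Some fold changes turned sign. With weighted counts, which take in part of the exon segment left out of the main sum, the gene trnL-UAA had 0.0191. The main test gave -0.44, the lowest value of any feature together with its intron. The trnG-UCC intron had 0.00605, where the main test gave -0.13. With reads outside rRNA as library size, the petB intron had -0.0315 and rrn23S -0.00524. Leaving out each library, the petB intron ran from -0.0564 to 0.166, the petD intron from -0.0485 to 0.255, rrn23S from -0.00643 to 0.0927 and rrn5S from -0.260 to 0.0107. The cause of these changes was not tested. Without the read length added, the atpF intron, counted together with exon 2, stood at 0.435 of exon 1 in AtMKIP1-YFP and 0.508 in AtBE3-YFP. The main ratios were 0.757 in AtMKIP1-YFP and 0.821 in AtBE3-YFP. The atpF difference in log2 ratio between the lines moved from -0.12 to -0.22 in that setting, and the libraries no longer overlapped (exact permutation test, two-sided, p = 0.1, adjusted p = 0.4 over 4 introns). The differences in rRNA share and in the other intron ratios moved by less than the spread between libraries under each of their alternatives. Of the 15 highest genes 11 to 15 were shared under each of theirs. Depth limits the shortest segments, the lowest of which had 3 counts in a library.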
